A study of Mus musculus with 20 samples.

Results

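Microglia sorted from gliomas that grew in a genetically engineered mouse model (GEMM) were compared with microglia sorted from normal brain. The comparison took 6 of the 20 libraries of the study, by their names in the count table: GEMM microglia (GEMM MG) 68702, BB30101 and BB30105, and normal microglia (normal MG) 67572, 67573 and 67574. Both groups are labelled as C57BL/6 mice. The protocol uses Flt3:Cre with the Rosa26:mTmG reporter, in which Flt3-expressing blood progenitors and their descendants lose red TdTomato and gain green GFP, while microglia stay red. The tumours were started at 6 weeks of age by injecting 300000 DF1 chicken fibroblasts into the right frontal cortex. These cells made 2 avian retroviruses of the RCAS type, 1 carrying PDGFB with an HA tag and the other a short hairpin against p53, mixed at a ratio of 1 to 1. The stated gate for GEMM MG is CD45+ CD11b+ Ly6C- Ly6G-, TdTomato+ and GFP-, so an unswitched macrophage of blood origin would also fall in it. Bone marrow-derived macrophages (GEMM BMDM, GFP+ and TdTomato-) were sorted from tumours with the same 3 names. The labels attach that same protocol text to the normal brain libraries, and the age of the normal mice, whether they carried the reporter and how their cells were gated are nowhere stated in them. Tumour state, mouse and any day of sorting or sequencing cannot be told apart between the groups. Nothing in the labels says that the 3 libraries of a group came from separate mice, so p-values measure a spread between libraries. That spread was estimated per gene over all 20 libraries of the study in 6 groups, not over these 6 libraries alone.

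Microglia are the resident macrophages of the brain parenchyma. They arise from yolk sac precursors, renew themselves locally, depend on signalling through the receptor CSF1R, and keep a homeostatic expression programme (P2ry12, Tmem119, Sall1, Cx3cr1) under TGF-beta and the transcription factors SALL1, MEF2, SMAD3 and MAF. In neurodegeneration and demyelination a part of them takes on a phagocytic state marked by Apoe, Cst7, Clec7a, Axl and Itgax, called disease-associated microglia, for which the receptor TREM2 is needed. In glioma, microglia and recruited monocyte-derived macrophages together form a large part of the tumour mass.

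Values are CPM, the usual depth-scaled unit computed from the deposited raw counts, scaled to a library size corrected by the trimmed mean of M values (TMM). Library values are listed in the order 68702, BB30101 and BB30105 for GEMM MG and 67572, 67573 and 67574 for normal MG, and every fold change compares 3 libraries with 3. CPM is not divided by gene length, so levels are compared within a gene. A gene is called higher or lower where the Benjamini-Hochberg adjusted p of edgeR's quasi-likelihood test, over all 15363 genes tested, is under 0.05, and fold changes are log2 of GEMM MG over normal MG with the standard error (SE).

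The 3 GEMM MG libraries held 23064781, 36297826 and 25150702 counts and the normal MG libraries 30391652, 26421803 and 28109427. The summed CPM of the 6 microglia-defining markers was 16740, 11870 and 19070 CPM in GEMM MG and 26460, 29930 and 26530 in normal MG, against a mean of 4210 in GEMM BMDM, and 2 of the 6 were called lower (1 without 68702, BB30101, 67572, 67573 or 67574) and 0 higher; all 6 libraries lay well above the BMDM mean. BB30101 stood apart from the other GEMM MG libraries: it had the lowest microglia sum and the highest sum of 10 genes of monocyte-derived macrophages, which was 41.2, 114 and 33.4 CPM in GEMM MG and 11.7, 9.87 and 13.8 in normal MG, with 8 of the 10 called higher and 0 lower. Against the GEMM BMDM mean of 1312 CPM these sums were 3.14%, 8.72% and 2.54% in GEMM MG and 0.893%, 0.752% and 1.05% in normal MG. Where leaving out a library ended the call of a named gene or moved a list's count by more than 1.5 times, the value without it is given.

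Markers of several other cell types moved with the groups as well, and their part in the results below was not tested except where a value is given. Their counts are read beside the 23% called higher and 20.9% called lower over all genes tested. The 10 markers of oligodendrocyte precursors and of PDGF-driven glioma cells summed to 226, 264 and 170 CPM in GEMM MG and 6.38, 19.4 and 24 in normal MG, with 9 of 10 called higher. In Pdgfra, the PDGF receptor of those cells, the levels were 49.3, 49.3 and 37.6 CPM in GEMM MG and 0.202, 0.352 and 0.686 in normal MG (log2 6.76; 7.34 (adjusted p = 6.28e-05) without 67574). Olig2, a transcription factor of the oligodendrocyte lineage, showed 7.88, 10.7 and 8.77 CPM in GEMM MG and 0.101, 0.235 and 0 in normal MG. The groups did not overlap in either gene, and in GEMM BMDM of the same tumours the marker sum was 78.6 CPM. Astrocyte markers summed to 152, 119.8 and 193 CPM in GEMM MG and 424, 539.5 and 559 in normal MG, with 5 of 8 called lower (3 without 68702, BB30101 or 67574) and 1 higher. Neuron markers summed to 7.48, 8.51 and 9.03 CPM in GEMM MG and 21.7, 25.5 and 35.6 in normal MG, with 4 of 8 tested called lower (2 without 68702, 0 without BB30101 and 1 without 67574) and 0 higher. Oligodendrocyte marker sums overlapped between the groups, at 186, 175 and 160.3 CPM in GEMM MG and 184, 289 and 402 in normal MG. Of these 8 markers 3 were called lower and 1 higher, with a median log2 of -1.44. Dendritic cell markers reached 17.2, 81.2 and 23.3 CPM in GEMM MG and 14.3, 13 and 13.2 in normal MG, with 5 of 8 called higher (3 without BB30101, 67572, 67573 or 67574). Border macrophage markers reached 99.8, 167 and 88.9 CPM in GEMM MG and 46.8, 44.7 and 69.9 in normal MG. Of these 9 markers 2 were called higher (1 without BB30101, BB30105, 67572, 67573 or 67574), near the share over all genes. T cell markers stayed at or below 10.96 CPM and NK cell markers at or below 11.92 CPM in all 6 libraries, both highest in BB30101, with 4 (2 without BB30101) and 3 (1 without BB30101) called higher. The neutrophil marker sum was 371, 345 and 444 CPM in GEMM MG and 634, 624 and 595 in normal MG, most of it from the receptor gene Csf3r, which was not called (log2 -0.76, adjusted p = 0.251). Of the 11 neutrophil markers 2, Cxcr2 and Retnlg, were called higher (1 without 68702, 67572, 67573 or 67574) and 0 lower, with a median log2 of 2.78. That higher count is no more than the share over all genes. The granule genes Camp and Elane were at 0 in all 6.

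**Figure D1:**
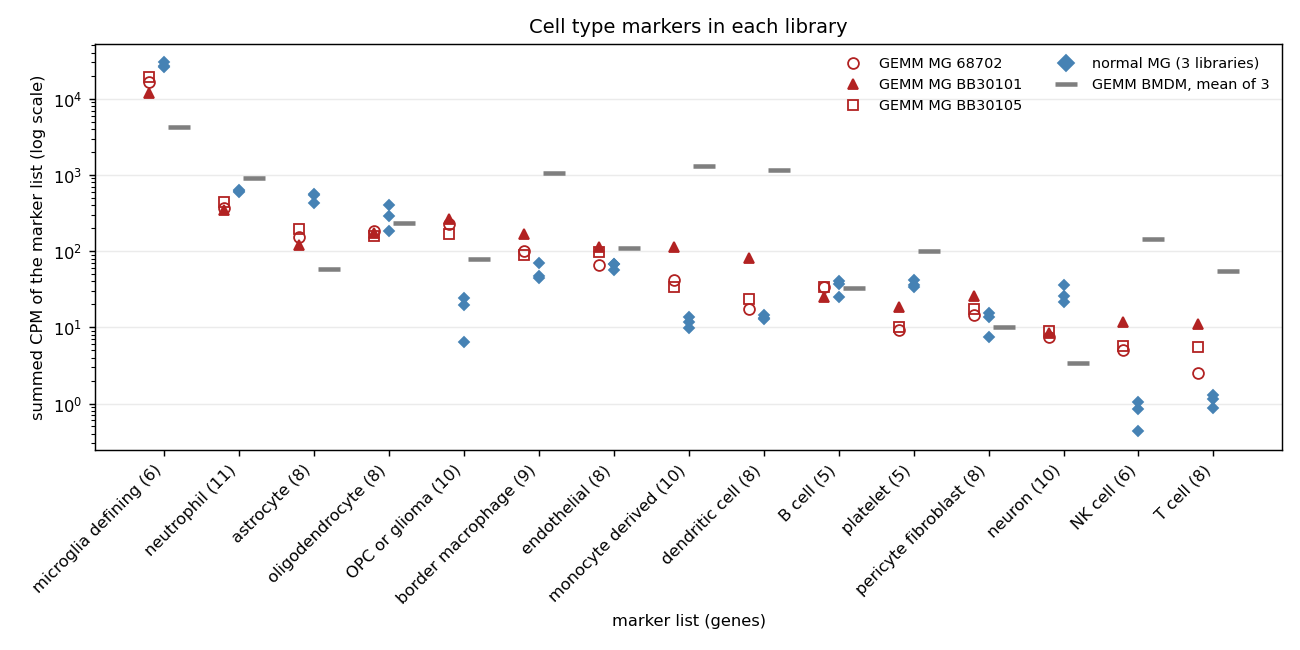
Summed CPM of cell type marker genes (log axis) by list (number of genes in brackets), with 1 point per library for the 3 GEMM MG (red) and 3 normal MG libraries (blue) and a grey bar at the mean of 3 GEMM BMDM libraries. Precursor or glioma markers sat between 170.0 and 264.2 CPM in GEMM MG and between 6.382 and 23.96 in normal MG, and BB30101 was the highest GEMM MG point for monocyte-derived and dendritic cell markers.

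Of the 15363 genes tested 6731 were called (43.8%), 3527 higher (23%) and 3204 lower (20.9%) in GEMM MG, and the median log2 fold change over all genes was -0.02. In 62.2% of the genes the 3 and 3 libraries did not overlap. Counts within gene lists are read against these shares. Of 1961 genes called higher at 20 CPM or more in GEMM MG, 915 had a lower mean in GEMM BMDM than in GEMM MG. Counts of list members with a lower mean in GEMM BMDM are read against that. Every one of the 26 mitosis genes and 28 DNA replication genes was called higher, as were 29 of 32 disease-associated microglia genes, 34 of 39 type I interferon response genes and 28 of 37 genes of migration and cytoskeleton. The microglia identity list went the other way, with 16 of 30 lower and 0 higher, as did the immediate early and stress genes, with 17 of 34 lower.

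**Figure D2:**
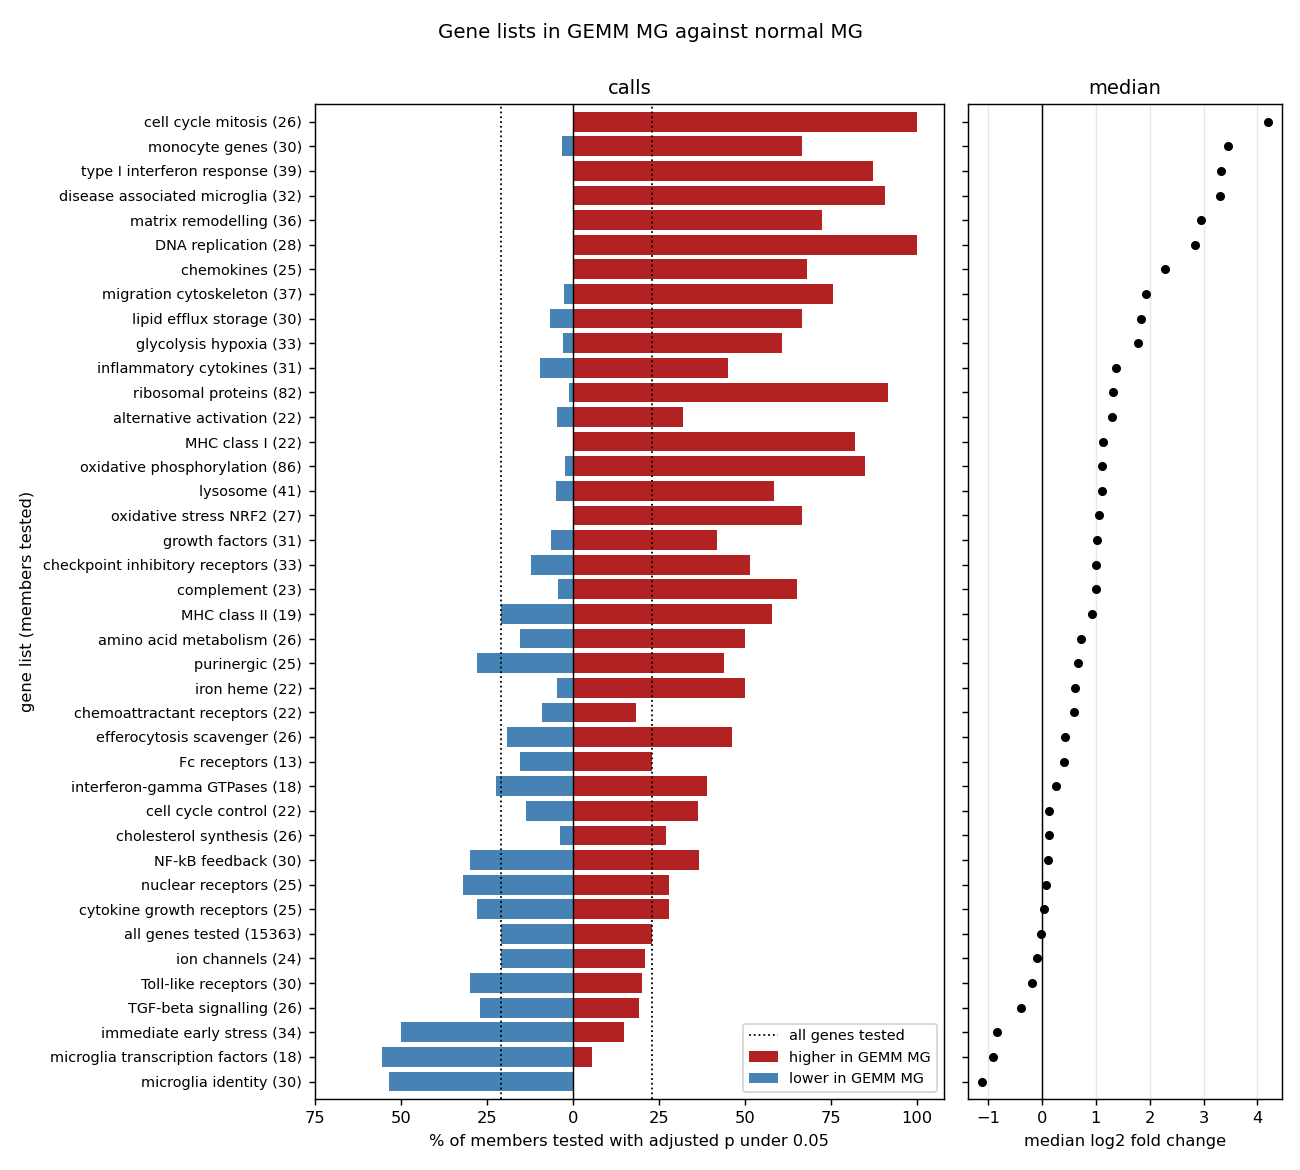
Members called higher (right) and lower (left) in GEMM MG against normal MG for each gene list, as percent of members tested, with the share over all genes as dotted lines, and the median log2 fold change of each list in the right panel. Mitosis and DNA replication reach 100% higher, while microglia identity, its transcription factors and the immediate early genes lean to lower calls, beside 23% higher and 20.9% lower over all genes tested.

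The genes with the largest rises at 20 CPM or more included genes of lipid handling, complement and interferon response. Itgal, the alpha chain of the leukocyte integrin LFA-1 (chromosome 7, 127296139 to 127335137 in GRCm38.p6), showed 63, 82.6 and 85.4 CPM in GEMM MG and 0.403, 0.157 and 0.377 in normal MG (log2 fold change 7.90, SE 0.71, adjusted p = 1.96e-07). C3, the central complement protein (chromosome 17, 57203967 to 57228136), was at 73, 139 and 130.4 CPM in GEMM MG and 0.537, 0.822 and 0.548 in normal MG (log2 fold change 7.48, SE 0.51, adjusted p = 1.19e-08). The normal libraries stayed below 1 CPM in both, and no GEMM MG library came near them. Irg1, whose product makes itaconate, rose by a log2 of 7.41, from 0.202, 0.509 and 0.137 CPM in normal MG to 36.1, 56.5 and 50.8 CPM in GEMM MG, and by 8.09 (adjusted p = 8.97e-05) without normal library 67573. Oas3, an interferon-induced synthetase of the RNase L pathway, rose by 7.18, to 24.7, 12.1 and 43.9 CPM.

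A second set of large rises differed widely among the 3 tumour libraries. Csn3, which encodes kappa casein, had 8.62, 150.1 and 6.95 CPM in GEMM MG and 0.134, 0.0392 and 0 in normal MG, and Expi, a gene of the WAP protein family, 18.6, 287 and 13.2 CPM in GEMM MG and 0.336, 0.392 and 0.171 in normal MG. BB30101 was far above the other GEMM MG libraries in both, and without it the log2 fold change went from 9.73 to 6.90 (adjusted p = 0.000485) for Csn3 and from 8.45 to 5.71 (adjusted p = 0.000152) for Expi. Without normal library 67572, Csn3 stood at 11.14 (adjusted p = 0.00182). Arg1, the arginase of alternatively activated macrophages, behaved likewise, at 34.1, 1032 and 60.7 CPM in GEMM MG and 1.81, 1.61 and 1.85 in normal MG. Its log2 fold change of 7.73 was 4.75 (adjusted p = 0.0221) without BB30101, and limma-voom called neither it nor Csn3. The mean of Arg1 in GEMM BMDM was 806 ± 1031 CPM. Moxd1, a monooxygenase gene related to dopamine beta-hydroxylase, was higher in all 3 GEMM MG libraries, at 12.1, 31.6 and 25.3 CPM in GEMM MG and 0, 0.0783 and 0.0343 in normal MG (log2 9.11, and 9.96 (adjusted p = 6.03e-05) without normal library 67573). Its mean in GEMM BMDM was 6.82 ± 6.91 CPM, a spread as large as the mean, and the difference from GEMM MG was not tested.

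Among the largest falls, Gpr165, an orphan receptor gene of the microglia list, was at 2.31, 0.495 and 4.16 CPM in GEMM MG and 149, 167 and 135 in normal MG (log2 fold change -6.05, SE 0.87, adjusted p = 2.66e-05; -6.81 (adjusted p = 9.83e-05) without BB30105). Sult1a1, a sulfotransferase, fell with little spread, at 24.8, 16.6 and 19.4 CPM in GEMM MG and 215, 217 and 220 in normal MG (log2 fold change -3.42, SE 0.51, adjusted p = 3.69e-05). Mycl1, a MYC family transcription factor gene, was at 4.28, 2.16 and 3.85 CPM in GEMM MG and 58.1, 88.5 and 74.5 in normal MG (log2 fold change -4.43, SE 0.60, adjusted p = 1.53e-05). In all 3 genes the lowest normal library was several times the highest tumour library. Other large falls were in genes that brain cells other than microglia express. Kif5a, a neuronal kinesin, had 5.51, 5.89 and 16.8 CPM in GEMM MG and 90.9, 156 and 276 in normal MG, with a log2 fold change of -4.22 and -4.93 (adjusted p = 4.85e-05) without BB30105. Nrsn1, a gene of neurons, had 0.739, 1.14 and 2.13 CPM in GEMM MG and 13, 24 and 34.3 in normal MG (log2 -4.15). Ttr, the transthyretin made by the choroid plexus, ranged from 6.423 to 122.7 CPM among the normal libraries and was at or below 0.221 CPM in GEMM MG (log2 -8.45; -6.37 (adjusted p = 0.00273) without 67572). The neuron marker sums above were 21.7, 25.5 and 35.6 CPM in the same normal libraries, below the level of Kif5a alone. The part of other cells in the falls of Kif5a, Nrsn1 and Ttr was not tested.

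Homeostatic microglia genes were lower in tumour microglia, with a wide range of sizes. Of the 30 genes 16 were called lower and 0 higher, with a median log2 of -1.11 beside -0.02 over all genes, and a lower level in GEMM MG cannot be told apart from a smaller share of cells that express the gene. P2ry12, the purinergic receptor that steers microglial processes to ATP, was at 1916, 1053 and 2239 CPM in GEMM MG and 5766, 6774 and 5998 in normal MG (log2 fold change -1.83, SE 0.44, adjusted p = 0.00263). Selplg, the P-selectin ligand, was at 1208, 829 and 1805 CPM in GEMM MG and 4528, 5332 and 5047 in normal MG (log2 fold change -1.96, SE 0.43, adjusted p = 0.00124). Upk1b, a tetraspanin gene, was at 18.1, 11.9 and 29.6 CPM in GEMM MG and 118, 190.2 and 158 in normal MG (log2 fold change -2.97, SE 0.66, adjusted p = 0.0014). BB30101 was the lowest library in all 3, and the groups did not overlap.

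Other members of the identity list changed less. Csf1r, the receptor for the survival factors CSF1 and IL-34, fell by 1.04 on the log2 scale from 10930, 13290 and 11160 CPM to 5800, 4464 and 6944 CPM (adjusted p = 0.00775). Entpd1, the ectonucleotidase CD39, fell by 1.46, to 406, 291 and 460.5 CPM from 1086, 1123 and 973 CPM. Cx3cr1, the fractalkine receptor, did not pass the test although the groups did not overlap, at 2519, 1560 and 2265 CPM in GEMM MG and 5009, 5638 and 4729 in normal MG (log2 -1.28, adjusted p = 0.0837). Sparc, a matrix-binding protein gene, was not called either (log2 -0.33, adjusted p = 0.644). Siglech, a sialic acid-binding receptor of microglia, had 849, 612 and 1200 CPM in GEMM MG and 2609, 2400 and 2210 in normal MG and its call (log2 -1.44, adjusted p = 0.0458) was lost when any library other than BB30105 was left out (log2 -1.23 (adjusted p = 0.151) without BB30101), with DESeq2 size factors and without the filter. Without BB30101 the number of identity genes called lower went from 16 to 8, and in a fit of the 6 libraries alone it was 25.

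**Figure D3:**
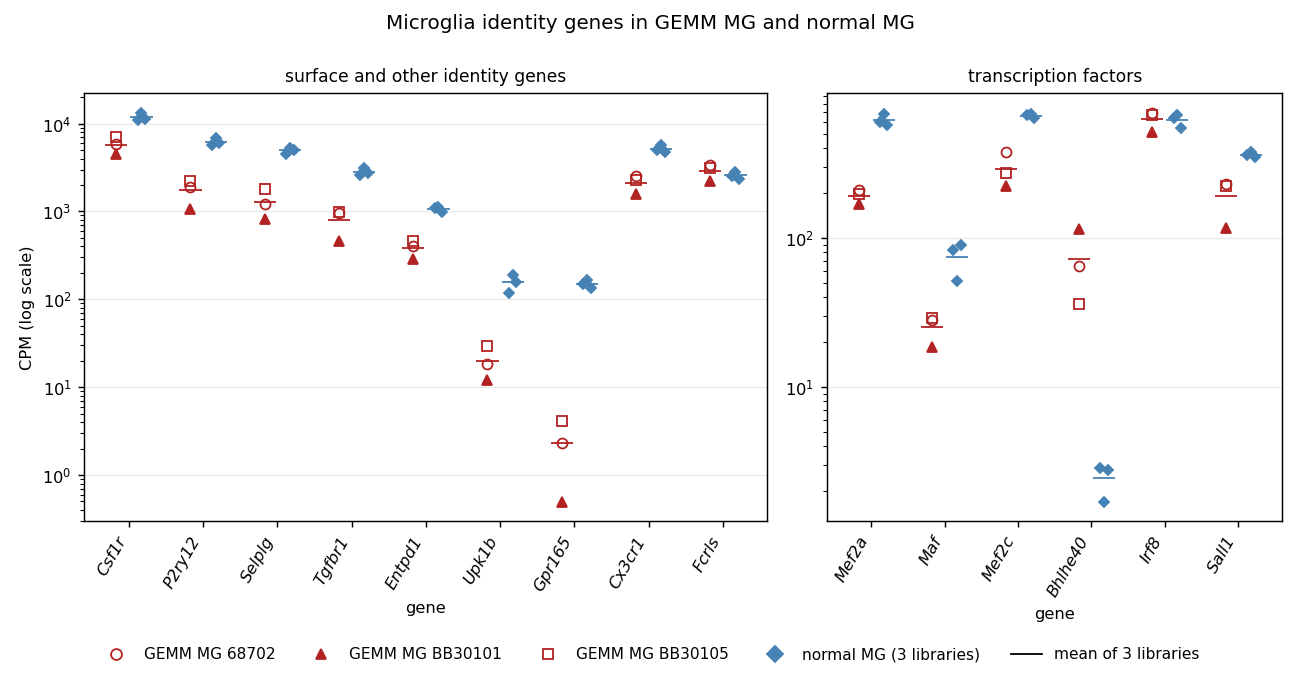
CPM (log axis) of microglia identity and transcription factor genes, with 1 point per library for the 3 GEMM MG (red, 1 symbol each) and 3 normal MG libraries (blue) and a bar at the mean. Gpr165 shows the widest gap between the groups, P2ry12 and Selplg separate fully, and the groups overlap in Irf8.

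Transcription factors that maintain microglia moved mostly with the identity genes, 10 of 18 lower and 1 higher, and 5 lower without BB30101. Mef2a, a MADS-box factor of microglial enhancers, was at 211, 169 and 198 CPM in GEMM MG and 604, 684 and 572 in normal MG (log2 fold change -1.68, SE 0.22, adjusted p = 1.26e-05). Maf, a basic leucine zipper factor, fell by 1.57, to 28.2, 18.4 and 29 CPM. Both were lower in every tumour library. Mef2c fell by 1.18, and had -1.02 (adjusted p = 0.0509) without BB30101. Sall1, which defines parenchymal microglia, was at 231, 117 and 224 CPM in GEMM MG and 360, 381 and 351 in normal MG and did not pass the test (log2 -0.93, adjusted p = 0.178). Irf8 was level, at 695, 518 and 669.9 CPM in GEMM MG and 639, 667 and 552 in normal MG (adjusted p = 0.972). The exception was Bhlhe40, a stress- and cytokine-inducible repressor, at 64.8, 115 and 35.9 CPM in GEMM MG and 2.85, 1.68 and 2.78 in normal MG (log2 fold change 4.87, SE 0.52, adjusted p = 1.31e-06).

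TGF-beta signalling genes were called in both directions, 5 higher and 7 lower of 26, near the 23% and 20.9% over all genes. The higher count was 3 without BB30101, BB30105 or 67574 and 2 without 67573, and the lower count 4 without 68702 and 3 without BB30101. The receptor chain Tgfbr1 was at 971, 462 and 979 CPM in GEMM MG and 2620, 3111 and 2721 in normal MG (log2 fold change -1.81, SE 0.44, adjusted p = 0.00271), whereas the ligand-binding chain Tgfbr2 was at 692, 379 and 609 CPM in GEMM MG and 572, 648 and 530.5 in normal MG (log2 -0.06, adjusted p = 0.911). The fall in Tgfbr1 was present in every tumour library, while the Tgfbr2 ranges overlapped. Itgav, the integrin chain that activates latent TGF-beta, fell by 1.05, to 109, 97.7 and 111 CPM from 216, 226 and 214 CPM. The signal transducer Smad2 fell by 0.59 (adjusted p = 0.00099). Tgfbi, a secreted protein induced by TGF-beta, rose by 1.28, to 89.1, 174 and 76.5 CPM from 39.8, 46.2 and 54 CPM. Eng, a co-receptor, had a log2 of -1.18 and -0.90 (adjusted p = 0.084) without BB30101.

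The disease-associated microglia list rose almost as a whole, 29 of 32 higher and 0 lower, median log2 3.31. Apoe, the main lipid carrier of the brain, was at 39400, 30340 and 12850 CPM in GEMM MG and 433, 452 and 782 in normal MG (log2 fold change 5.63, SE 0.53, adjusted p = 3.43e-07). Cst7, an inhibitor of cathepsins (chromosome 2, 150570415 to 150578944), was at 1030, 902 and 676 CPM in GEMM MG and 9.3, 10.2 and 11.1 in normal MG (log2 fold change 6.41, SE 0.48, adjusted p = 3.87e-08). Clec7a, the receptor dectin-1 (chromosome 6, 129461591 to 129472785), was at 1369, 2079 and 1248 CPM in GEMM MG and 27.6, 26.2 and 25.2 in normal MG (log2 fold change 5.89, SE 0.49, adjusted p = 1.03e-07). Even the lowest tumour library was far above the highest normal library in each. Axl, a receptor for dying cells, was at 918, 628 and 938 CPM in GEMM MG and 15.7, 24 and 26.7 in normal MG (log2 fold change 5.22, SE 0.38, adjusted p = 2.79e-08), and Itgax, the integrin CD11c, at 307, 204 and 417 CPM in GEMM MG and 6.52, 9.09 and 8.47 in normal MG (log2 fold change 5.27, SE 0.56, adjusted p = 1.36e-06). Neither Axl nor Itgax had BB30101 as its highest library. Gpnmb, a lysosomal and surface glycoprotein of lipid-laden macrophages, rose by a log2 of 7.33 (159, 222 and 56.3 CPM against 0.605, 0.901 and 1.2 CPM). Spp1, osteopontin, rose by 6.64 but spread over 3538, 1213 and 491 CPM among the tumour libraries, and was at 5.60 (adjusted p = 8.03e-06) without 68702. Lgals3, galectin-3, rose by 6.76, and by 6.07 (adjusted p = 1.12e-07) without BB30101, the library in which it was highest.

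Trem2, on whose product entry into that state depends in other models, was level, at 864, 823 and 923 CPM in GEMM MG and 876, 797 and 845 in normal MG (log2 0.05, adjusted p = 0.883). Ccl6, a chemokine of the same list, was not called, and its tumour libraries ranged over 872, 345 and 220.5 CPM. Between 28 and 31 members of the list were called higher under every alternative and with any library left out. In 18 of the 29 called members the mean was lower in GEMM BMDM than in GEMM MG. Cst7 was at 71.4 ± 42.2 CPM in GEMM BMDM, whereas Apoe was at 43850 ± 26520 CPM.

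Lipid storage and efflux genes were higher in 20 and lower in 2 of 30, median 1.84. Of these genes, Apoe, Lpl, Fabp5 and Ch25h are also in the disease-associated list. Plin2, which coats lipid droplets, was at 572, 812 and 362 CPM in GEMM MG and 44.8, 44.8 and 43.3 in normal MG (log2 fold change 3.71, SE 0.31, adjusted p = 9.97e-08). Soat1, which esterifies cholesterol, was at 359.6, 268 and 256 CPM in GEMM MG and 68.3, 76.6 and 73.7 in normal MG (log2 fold change 2.02, SE 0.16, adjusted p = 5.68e-08). Cd36, a scavenger receptor for oxidised lipids, was at 214, 226 and 147 CPM in GEMM MG and 2.75, 1.29 and 2.47 in normal MG (log2 fold change 6.48, SE 0.59, adjusted p = 2.26e-07). Each rose in all 3 tumour libraries. Ch25h, the cholesterol 25-hydroxylase, rose by 5.29, to 71.7, 33.9 and 30.1 CPM, and was at 9.01 ± 7.47 CPM in GEMM BMDM. The apolipoprotein genes Apoc1 (122, 84.8 and 16.2 CPM against 0.369, 0.196 and 0.72 CPM, log2 7.40) and Apoc2 (log2 7.54) were among the largest rises of all genes; without normal library 67574 they stood at 7.99 (adjusted p = 0.00011) and 8.22 (adjusted p = 3.44e-07). The efflux pump Abca1 was not called (log2 0.86, adjusted p = 0.0795). The triglyceride lipase Pnpla2 fell by 1.26, to 67.7, 83.9 and 82.1 CPM from 185, 191 and 182 CPM, and the acyl-CoA synthetase Acsl1 fell by 0.99. Cholesterol synthesis genes were mostly not called, 7 higher and 1 lower of 26. The higher count was 4 without 68702 or BB30105, 3 without BB30101 or 67573 and 2 without 67572, and the lower count 2 without BB30105. The reductase Dhcr7 was among the higher ones (log2 1.05, adjusted p = 2.83e-05) and Insig1, a retention protein of the sterol sensor, was the lower one (log2 -1.03).

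Lysosomal genes were higher in 24 and lower in 2 (1 without 68702, BB30101, 67572 or 67573) of 41, median 1.12. Ctsb, Ctsd, Ctsz, Ctsl, Cst7, Cd63 and Cd68 are also in the disease-associated list. Among proteases, cathepsin B (Ctsb) was at 20160, 19770 and 18640 CPM in GEMM MG and 3773, 4001 and 3705 in normal MG (log2 fold change 2.35, SE 0.23, adjusted p = 5.36e-07). Cathepsin D (Ctsd) was at 46580, 47500 and 49890 CPM in GEMM MG and 18330, 19100 and 18190 in normal MG (log2 fold change 1.37, SE 0.34, adjusted p = 0.00317). Cathepsin Z (Ctsz) rose by 1.97, to 4731, 4823 and 5994 CPM. Tumour and normal libraries were far apart relative to their spread in all 3. The cholesterol carrier Npc2 rose by 1.32 and the ganglioside activator Gm2a by 1.56. Cst3, the secreted inhibitor cystatin C, went the other way, at 9081, 6471 and 10700 CPM in GEMM MG and 28910, 25400 and 25620 in normal MG (log2 fold change -1.61, SE 0.31, adjusted p = 0.000402), while the intracellular inhibitor Cstb rose by 2.28, to 327, 363 and 276 CPM. The asparaginyl protease Lgmn was at 5043, 4670 and 5676 CPM in GEMM MG and 3583, 3945 and 3864 in normal MG (log2 0.43, adjusted p = 0.0769), not overlapping but not called.

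Complement genes were higher in 15 and lower in 1 (0 without BB30101 or 67573 and 2 without 67574) of 23, with 10 higher when BB30105 was left out. Beside C3, the factors C2 (21.1, 19 and 36.2 CPM against 0.941, 1.06 and 1.47 CPM, log2 fold change 4.45, SE 0.40, adjusted p = 2.31e-07) and Cfb (121, 104 and 217 CPM against 1.28, 1.33 and 1.95 CPM, log2 fold change 6.59, SE 0.53, adjusted p = 7.55e-08), which form the classical and alternative convertases, rose in every tumour library. C4b rose by 6.16, and by 6.89 (adjusted p = 8.16e-07) without 67574. The C1q chains were already abundant in normal MG and changed little: C1qb had 9434, 9617 and 10830 CPM in GEMM MG and 6591, 6409 and 6767 in normal MG (log2 fold change 0.60, SE 0.20, adjusted p = 0.0234), and was not called without BB30105 (0.53 (adjusted p = 0.0743)), 67572 (0.60 (adjusted p = 0.0575)) or 67573 (0.58 (adjusted p = 0.0667)). Itgam, the CD11b chain used in the sort, was level (log2 0.08, adjusted p = 0.881).

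Genes of antibody and dead-cell uptake were called in both directions. Fcgr4, an activating receptor for IgG, was at 195, 174 and 178 CPM in GEMM MG and 11.9, 9.99 and 12 in normal MG (log2 fold change 4.01, SE 0.35, adjusted p = 1.64e-07), and its signalling chain Fcer1g rose by 1.22, to 2049, 1972 and 1986 CPM. Fcgr3, the other activating receptor named, did not change measurably (log2 0.06, adjusted p = 0.784). Downstream, the kinase Syk fell by 0.97, to 118, 134 and 136 CPM from 269, 266 and 226 CPM, and the inositol phosphatase Inpp5d fell by 1.07, to 703, 518 and 770.4 CPM. Of 13 genes of the Fc receptor list 3 were higher and 2 lower, near the 23% and 20.9% over all genes. Of 26 genes of dead-cell uptake 12 were higher and 5 lower (3 without 68702, BB30105 or 67572 and 2 without BB30101 or 67573). The scavenger receptor Msr1 was at 168, 254 and 53.7 CPM in GEMM MG and 8.03, 7.64 and 11.1 in normal MG (log2 fold change 4.15, SE 0.44, adjusted p = 1.17e-06). Elmo1, a part of the engulfment machinery, fell by 1.57, to 261, 223 and 292 CPM from 729, 829.5 and 744 CPM.

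Interferon-stimulated genes are switched on through interferon receptors, JAK kinases and the factor ISGF3, which binds the interferon-stimulated response element in their promoters. Its core, searched as GAAANNGAA on both strands in the 250 bases before to 50 after each start in RefSeq (GRCm38.p6), was present in 15 of 28 promoters of the list (53.6%), in 8.82% of 10847 genes tested that have a promoter entry and in 9.76% of all 27025 entries. The interferon gamma list, described below, held it in 10 of 16 promoters (62.5%), so the element is not particular to the type I list. Among all genes called higher the share was 10.3% and among those called lower 8.01%. The promoters of Isg15, a ubiquitin-like modifier, and Rsad2, the antiviral enzyme viperin, show how the element looks in the type I list. They were chosen after their matches were seen. Each stretch is the 120 bases that end just before the start, with the core in capitals, for Isg15 from chr4:156200819-156200938, minus strand, with 3 overlapping matches, and for Rsad2 from chr12:26456453-26456572, minus strand, with 1 match on the opposite strand:
Isg15: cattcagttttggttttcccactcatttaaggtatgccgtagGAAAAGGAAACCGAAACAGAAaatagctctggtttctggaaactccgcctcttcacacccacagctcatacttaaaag
Rsad2: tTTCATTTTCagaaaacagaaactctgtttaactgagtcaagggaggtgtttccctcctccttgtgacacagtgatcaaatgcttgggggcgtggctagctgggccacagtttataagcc

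Of the 39 genes of the type I response tested 34 were higher and 0 lower, median log2 3.33. Rsad2, shown above, was at 129, 150.2 and 147 CPM in GEMM MG and 3.33, 1.25 and 2.16 in normal MG (log2 fold change 5.97, SE 0.35, adjusted p = 3.03e-09). Zbp1, a sensor of Z-form nucleic acid (chromosome 2, 173206612 to 173218959), was at 108, 62.8 and 106 CPM in GEMM MG and 1.04, 1.18 and 1.23 in normal MG (log2 fold change 6.32, SE 0.35, adjusted p = 1.2e-09). Ifi27l2a, a small interferon-induced membrane protein gene, was at 392, 217 and 319.6 CPM in GEMM MG and 3.8, 3.76 and 4.39 in normal MG (log2 fold change 6.28, SE 0.29, adjusted p = 2.51e-10). BB30101 was the lowest tumour library for Zbp1 and Ifi27l2a and the highest for Rsad2, by a small margin. Oas1a, which makes the activator of RNase L, rose by 4.40, to 120.4, 91.1 and 116 CPM from 5.47, 4.74 and 5.31 CPM. Ifitm3, which blocks virus entry, rose by 4.82, to 357, 259 and 428 CPM, and the DNA-binding gene Ifi204 by 4.45, to 256, 195 and 238 CPM. The receptor chains Ifnar1 (log2 0.13, adjusted p = 0.543) and Ifnar2 (log2 0.11, adjusted p = 0.639) were not called. Between 31 and 35 list members were called higher under the alternatives and with any library left out. In 7 of the 34 called the mean was lower in GEMM BMDM than in GEMM MG.

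**Figure D4:**
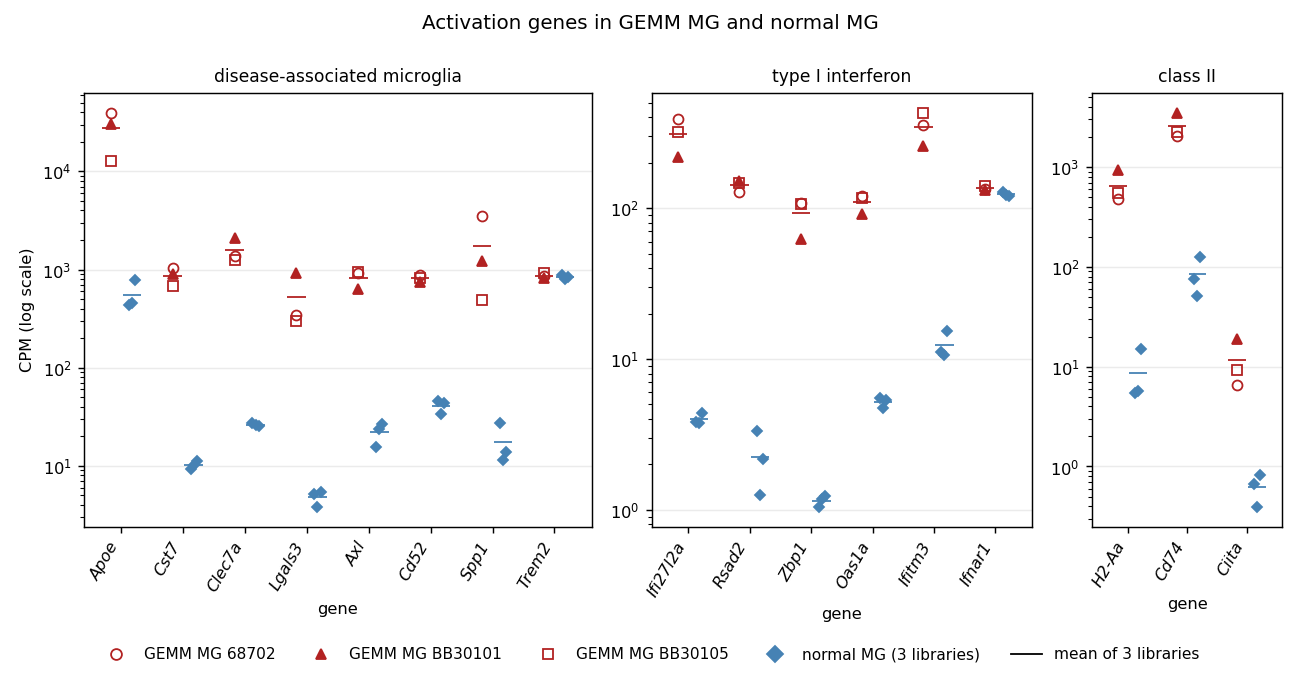
CPM (log axis) of disease-associated, type I interferon and class II genes, with 1 point per library for the 3 GEMM MG (red, 1 symbol each) and 3 normal MG libraries (blue) and a bar at the mean. The groups are far apart in Cst7, Zbp1 and Cd74, Trem2 and Ifnar1 lie level, and BB30101 is the highest point in the 3 class II genes.

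The genes used here for the interferon gamma response, guanylate-binding and immunity-related GTPases with their receptor and regulators, moved less uniformly: 7 higher and 4 lower of 18, median 0.25. The receptor chain Ifngr1 was at 572, 445 and 559.7 CPM in GEMM MG and 1365, 1772 and 1529 in normal MG (log2 fold change -1.57, SE 0.23, adjusted p = 3.23e-05), and the kinase Jak1 fell by 0.74, to 395, 329 and 361 CPM from 600.1, 666 and 552 CPM. Both were lower in every tumour library. Among effectors, Iigp1 was at 46.5, 26.9 and 45.9 CPM in GEMM MG and 0.638, 0.509 and 1.06 in normal MG (log2 fold change 5.73, SE 0.73, adjusted p = 7.52e-06), Gbp2 rose by 2.84, to 89, 68.4 and 116 CPM, and Irgm1 by 1.05, to 219, 144 and 224 CPM. The ligand gene Ifng had 0 counts in all 6 libraries, which allows up to 3 counts a library. Irf1 did not overlap, at 198, 135 and 236 CPM in GEMM MG and 516, 323 and 262 in normal MG, but missed the threshold (adjusted p = 0.055). Cxcl9 was at 4.28, 4.02 and 19.8 CPM in GEMM MG and 0.134, 0.0392 and 0.308 in normal MG, highest in BB30105, with a log2 of 5.77 that was 4.60 (adjusted p = 0.000922) without that library and 6.60 (adjusted p = 0.000933) without 67574, and limma-voom did not call it.

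Class I antigen presentation, which loads peptides from inside the cell, was higher in 18 and lower in 0 of 22 genes, median 1.13. The heavy chain H2-D1 was at 4931, 4627 and 6313 CPM in GEMM MG and 1035, 897 and 949.5 in normal MG (log2 fold change 2.46, SE 0.21, adjusted p = 1.39e-07), although near-identical H2 genes can share reads. The light chain B2m rose by 1.76, to 8553, 6827 and 8810 CPM (adjusted p = 1.6e-06). The immunoproteasome subunit Psmb8 was at 442, 367 and 398 CPM in GEMM MG and 154, 150.5 and 159.7 in normal MG (log2 fold change 1.38, SE 0.14, adjusted p = 9.99e-07). All 3 had little spread within a group. Nlrc5, the transactivator of class I genes, rose by 3.18, to 36.7, 28.1 and 39.5 CPM from 3.26, 3.68 and 4.53 CPM. The transporter Tap2 (log2 0.03, adjusted p = 0.934) and its partner Tapbp (log2 0.27, adjusted p = 0.246) were not called. Without BB30105 13 of the genes were called higher.

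Class II presentation, which shows ingested antigen to CD4 T cells, rose strongly in the genes that encode the molecule. H2-Ab1 was at 676, 1280 and 819.8 CPM in GEMM MG and 17.7, 19 and 30.4 in normal MG (log2 fold change 5.37, SE 0.41, adjusted p = 3.93e-08). H2-Eb1 was at 252, 549.7 and 270 CPM in GEMM MG and 3.86, 3.33 and 8.12 in normal MG (log2 fold change 6.13, SE 0.47, adjusted p = 4.1e-08). Cd74, the invariant chain, was at 2037, 3485 and 2250 CPM in GEMM MG and 75.6, 51.6 and 127 in normal MG (log2 fold change 4.94, SE 0.42, adjusted p = 1.23e-07). BB30101 was the highest tumour library in each, and the other tumour libraries were still far above every normal library. Ciita, the transactivator of class II genes, followed the same order, at 6.5, 19.1 and 9.26 CPM in GEMM MG and 0.672, 0.392 and 0.823 in normal MG (log2 fold change 4.19, SE 0.50, adjusted p = 3.68e-06). GEMM BMDM held more, 11270 ± 3405 CPM for H2-Ab1 and 246 ± 72.3 CPM for Ciita, and 1 of the 11 called members was lower in GEMM BMDM than in GEMM MG. The costimulatory receptor Cd40 rose by 4.92, to 6.7, 11.1 and 13.7 CPM from 0.336, 0.196 and 0.48 CPM, while Cd86 was not called (log2 -0.15, adjusted p = 0.689). Over the list 11 of 19 were higher and 4 lower (1 without 68702, BB30101, 67573 or 67574 and 2 without BB30105 or 67572). Rfx5, a constitutive factor of class II promoters, had a log2 of -0.67 and lost its call without BB30101 (-0.51 (adjusted p = 0.0652)).

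Inflammatory cytokine genes were higher in 14 and lower in 3 of 31, median 1.38. Il1b was at 1658, 1915 and 2451 CPM in GEMM MG and 100.3, 42.6 and 43.6 in normal MG (log2 fold change 5.01, SE 0.60, adjusted p = 4.35e-06). Its natural antagonist Il1rn was at 139, 151 and 129 CPM in GEMM MG and 1.07, 1.41 and 1.41 in normal MG (log2 fold change 6.75, SE 0.66, adjusted p = 5.2e-07). Il18bp, a soluble decoy for IL-18, was at 112, 80.3 and 50.2 CPM in GEMM MG and 1.81, 2.08 and 2.6 in normal MG (log2 fold change 5.22, SE 0.57, adjusted p = 1.62e-06). Both an agonist and the antagonists thus rose, each without overlap. Osm, an IL-6 family cytokine, rose by 2.19, to 407, 253 and 303 CPM. Ptgs2, the inducible cyclooxygenase, rose by 3.70, to 211, 81 and 107 CPM from 12.2, 9.12 and 9.32 CPM, and the constitutive Ptgs1 was not called (log2 0.03). Il6ra, the IL-6 receptor chain, fell by 1.57, to 89.8, 65.2 and 127 CPM from 278, 289 and 268 CPM, and Il16 fell by 1.48, to 139.6, 93.8 and 116 CPM.

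Chemokine genes were higher in 17 and lower in 0 of 25, median 2.29, and limma-voom called 11 higher. Ccl5, a chemokine that attracts T cells and monocytes, was at 43.8, 78.2 and 134 CPM in GEMM MG and 0.84, 0.783 and 0.823 in normal MG (log2 fold change 6.69, SE 0.74, adjusted p = 1.92e-06). Cxcl10, a ligand of CXCR3, was at 344, 406 and 831 CPM in GEMM MG and 48.6, 33.5 and 42.8 in normal MG (log2 fold change 3.66, SE 0.64, adjusted p = 0.000193). Ccl12, a ligand of CCR2, was at 774, 587 and 1151 CPM in GEMM MG and 136, 130.5 and 139.5 in normal MG (log2 fold change 2.63, SE 0.48, adjusted p = 0.000253). BB30105 was the highest tumour library in all 3, and GEMM BMDM were lower than GEMM MG in Ccl12 (191 ± 121 CPM) and Cxcl10 (202 ± 137 CPM) by their means. Cxcl16, a membrane-bound chemokine, rose by 1.92, to 292, 393 and 369.7 CPM. Ccl3 had 1213, 838 and 1513 CPM in GEMM MG and 601, 547 and 477 in normal MG and missed the threshold (log2 1.13, adjusted p = 0.0665). Chemoattractant receptors were mostly not called, 4 higher and 2 lower (1 without BB30101) of 22. Cxcr4, the receptor for CXCL12, was at 29.2, 26.6 and 34.9 CPM in GEMM MG and 0.773, 0.783 and 1.17 in normal MG (log2 fold change 5.05, SE 0.41, adjusted p = 7.88e-08), and Ccr7, the lymph node homing receptor, at 4.73, 20.4 and 5.54 CPM in GEMM MG and 0.403, 0.587 and 0.583 in normal MG, a call (log2 4.29) lost without BB30101 (3.28 (adjusted p = 0.092)), without any of the 3 normal libraries, and under limma-voom.

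Sensors and their signalling genes were called in both directions. Of 30 Toll-like receptor and sensor genes 6 were higher and 9 lower, beside 23% and 20.9% over all genes. Tlr5, the flagellin receptor, was at 0.985, 0.787 and 1.37 CPM in GEMM MG and 17.4, 15.9 and 14.1 in normal MG (log2 fold change -3.92, SE 0.30, adjusted p = 4.05e-08). Tmem173, the adaptor STING, fell by 0.98, to 283, 235 and 352 CPM from 574, 581 and 557 CPM, and Traf6, a ubiquitin ligase of the pathway, fell by 0.82. Ly86, the co-receptor MD-1, rose by 1.59, to 3377, 2431 and 2967 CPM from 947, 992 and 975 CPM. NF-kB pathway and target genes were split, 11 higher and 9 lower of 30, with 5 lower without BB30101. The kinase gene Ikbke was at 37.2, 40.3 and 12 CPM in GEMM MG and 0.873, 0.901 and 1.47 in normal MG (log2 fold change 4.77, SE 0.50, adjusted p = 1.26e-06) and the co-activator Bcl3 rose by 2.76, to 36.6, 62.6 and 41.6 CPM, while Ikbkb fell by 0.60 and the feedback inhibitor Tnfaip3 was not called (log2 0.24). The survival genes Bcl2a1a (log2 2.31) and Bcl2a1d (log2 3.03) rose, with the limit that these copies can share reads.

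Alternative activation markers were not uniformly raised, 7 higher and 1 lower of 22. The higher count was 4 without 67573, 3 with limma-voom and 12 with the 6 libraries alone. Beside Arg1, Tgm2, a transglutaminase, was at 268, 1093 and 584 CPM in GEMM MG and 128, 118 and 108 in normal MG (log2 2.46; 1.85 (adjusted p = 0.00157) without BB30101, where it was highest). The factor Irf4 fell, at 1.92, 3.18 and 1.59 CPM in GEMM MG and 13.5, 10.8 and 9.8 in normal MG (log2 fold change -2.33, SE 0.43, adjusted p = 0.000291). Genes of immune checkpoints and inhibitory receptors were higher in 17 and lower in 4 of 33, and the lower count was 2 without 68702, 67572 or 67574 and 1 without BB30101 or 67573. Cd274, the ligand PD-L1, was at 80.0, 81.3 and 80.2 CPM in GEMM MG and 16.7, 19 and 19.1 in normal MG (log2 fold change 2.14, SE 0.35, adjusted p = 9.73e-05). Its receptor gene Pdcd1 was at 42, 37 and 55.7 CPM in GEMM MG and 3.36, 2.27 and 2.06 in normal MG (log2 fold change 4.13, SE 0.52, adjusted p = 7.25e-06) and at 10.2 ± 5.76 CPM in GEMM BMDM, and T cell markers summed to 2.511, 10.96 and 5.447 CPM in the same tumour libraries. Havcr2, the receptor TIM-3, had a log2 of -0.73, with -0.62 (adjusted p = 0.0725) without BB30101 and -0.62 (adjusted p = 0.0637) without 67573. Siglec1, an interferon-inducible adhesion receptor, rose by 4.27, to 12.5, 19.9 and 20.7 CPM from 0.773, 0.862 and 1.1 CPM.

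Cell division genes gave the most uniform change. Mitotic genes are switched on late in the cycle through promoters with a cell cycle homology region (CHR, searched as TTTGAA) and CCAAT boxes, and replication genes earlier through E2F sites (searched as TTTCGCGC and TTTGGCGC), all on both strands of the same promoter windows. The CHR letters were in 16 of 21 mitosis promoters (76.2%) against 14.7% of genes tested and 20.2% of all entries. CCAAT was in 85.7% against 42.9% of genes tested and 41.1% of all entries, and the E2F letters in 8 of 23 replication promoters (34.8%) against 1.71% and 0.929%. CCAAT was also in 88.9% of cholesterol synthesis and 76.9% of class II promoters, so it is not particular to mitosis genes. Stretches of 120 bases that end just before the start are shown for Cdc20 (chr4:118437344-118437463, minus strand) and Ube2c (chr2:164769809-164769928, plus strand), an activator and the ubiquitin-conjugating enzyme of the anaphase-promoting complex, with the CHR letters in capitals, and for Mcm6 (chr1:128359706-128359825, minus strand), a subunit of the replicative helicase, with the E2F letters in capitals, 2 of its 3 matches overlapping. They were chosen after the matches were seen:
Cdc20: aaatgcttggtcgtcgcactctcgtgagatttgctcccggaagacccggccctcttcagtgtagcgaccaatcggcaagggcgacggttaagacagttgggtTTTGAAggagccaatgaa
Ube2c: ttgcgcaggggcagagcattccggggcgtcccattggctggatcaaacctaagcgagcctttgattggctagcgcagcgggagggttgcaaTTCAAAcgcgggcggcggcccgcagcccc
Mcm6: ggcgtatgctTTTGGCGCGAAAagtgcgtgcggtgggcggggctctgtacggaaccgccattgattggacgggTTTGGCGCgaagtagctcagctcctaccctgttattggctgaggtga

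All 26 mitosis genes were called higher, median 4.20, and all 28 replication genes, median 2.83, and both counts held under every alternative and with each library left out in turn. Mki67, the proliferation antigen Ki-67, was at 79.7, 75.4 and 83.7 CPM in GEMM MG and 4.2, 2.86 and 4.04 in normal MG (log2 fold change 4.42, SE 0.35, adjusted p = 6.13e-08). Bub1, a spindle checkpoint kinase, was at 25.4, 23.2 and 35.3 CPM in GEMM MG and 0.369, 0.822 and 0.583 in normal MG (log2 fold change 5.56, SE 0.49, adjusted p = 1.64e-07). Aurkb, the kinase of the chromosomal passenger complex, was at 25, 23 and 27.1 CPM in GEMM MG and 1.14, 1.49 and 1.65 in normal MG (log2 fold change 4.13, SE 0.34, adjusted p = 7.88e-08). The tumour libraries lay within a narrow range and BB30101 did not stand out. Kif23, a kinesin of cell separation, rose by 4.39, to 27.5, 31 and 33 CPM. In replication, Tk1, thymidine kinase, was at 25.1, 28.4 and 28 CPM in GEMM MG and 1.18, 1.14 and 0.926 in normal MG (log2 fold change 4.65, SE 0.28, adjusted p = 3.36e-09), and Mcm5, a helicase subunit, at 77.6, 75.1 and 102 CPM in GEMM MG and 9.71, 11.1 and 11.3 in normal MG (log2 fold change 2.98, SE 0.29, adjusted p = 5.08e-07). The activator E2f1 rose by 4.07, to 28.8, 33.6 and 31.8 CPM, and cyclin E1 (Ccne1) by 4.10 (adjusted p = 5.87e-07). GEMM BMDM had a lower mean than GEMM MG in all 26 mitosis genes and in 24 of the 28 replication genes; Mki67 was at 58.1 ± 19.1 CPM there. The precursor or glioma marker sum of 225.5, 264.2 and 170.0 CPM stands in the same tumour libraries, and its part in these genes was not tested.

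**Figure D5:**
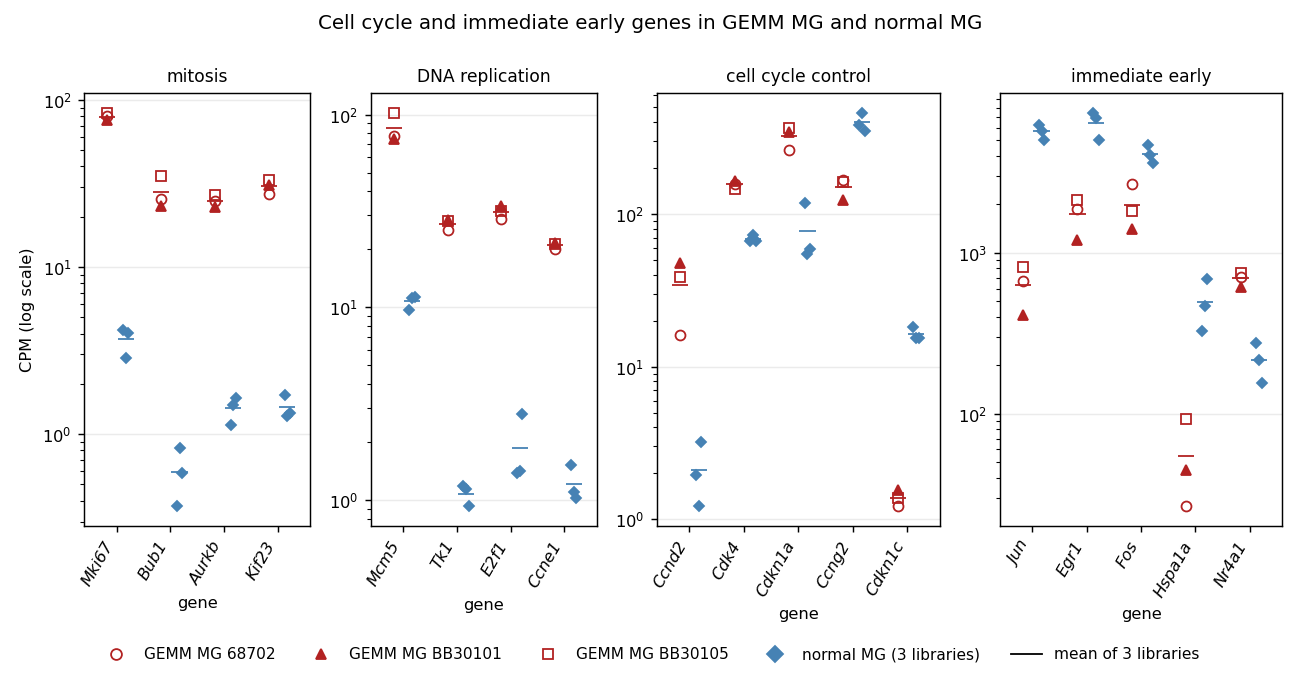
CPM (log axis) of mitosis, DNA replication, cell cycle control and immediate early genes, with 1 point per library for the 3 GEMM MG (red, 1 symbol each) and 3 normal MG libraries (blue) and a bar at the mean. Mki67, Bub1 and Tk1 are tightly grouped and separated in every library, while Cdkn1c, Ccng2, Jun and Egr1 go the other way.

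Regulators of the cycle were mixed, 8 higher and 3 lower of 22, median 0.14. Ccnd2, a D-type cyclin, was at 16.1, 47.7 and 38.8 CPM in GEMM MG and 1.95, 1.21 and 3.19 in normal MG (log2 fold change 4.01, SE 0.57, adjusted p = 2.57e-05), and its kinase Cdk4 rose by 1.19, to 158, 164 and 146 CPM. The inhibitor Cdkn1a (p21) rose by 2.07, to 263, 344 and 367 CPM from 118, 55 and 59.2 CPM. Cdkn1c (p57) fell, at 1.23, 1.54 and 1.37 CPM in GEMM MG and 18.1, 15.5 and 15.5 in normal MG (log2 fold change -3.55, SE 0.42, adjusted p = 3.61e-06), and Ccng2, a cyclin linked to cell cycle exit, fell by 1.41, to 166, 123 and 162 CPM. Inhibitors thus moved in both directions.

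Immediate early genes, which respond within minutes to stimuli including tissue dissociation, were lower in 17 (13 without BB30101) and higher in 5 (3 without BB30105 or 67573) of 34, median -0.83. Jun was at 671, 413 and 819 CPM in GEMM MG and 6279, 5765 and 5020 in normal MG (log2 fold change -3.16, SE 0.35, adjusted p = 2.08e-06). Egr1 was at 1883, 1204 and 2140 CPM in GEMM MG and 7415, 6907 and 5024 in normal MG (log2 fold change -1.89, SE 0.38, adjusted p = 0.000723). Fos was at 2684, 1404 and 1825 CPM in GEMM MG and 4701, 4032 and 3644 in normal MG (log2 fold change -1.07, SE 0.28, adjusted p = 0.00532). All 3 are transcription factors of this class and were lower in every tumour library. Junb had a log2 of -1.18, and -0.96 (adjusted p = 0.0545) without BB30101. The heat shock gene Hspa1a fell by 3.18, to 26.5, 44.8 and 92.5 CPM from 327, 469 and 689.6 CPM, and stood at -3.79 (adjusted p = 0.000193) without BB30105. The orphan nuclear receptors Nr4a1 (log2 1.69), Nr4a2 (log2 3.58) and Nr4a3 (log2 3.13) rose instead; Nr4a1 was at 712, 618 and 754 CPM in GEMM MG and 273, 216 and 156 in normal MG. Atf3 overlapped between the groups (log2 -0.21, adjusted p = 0.562).

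Genes of glycolysis and the hypoxia response were higher in 20 and lower in 1 (0 without 68702, BB30105, 67572, 67573 or 67574) of 33, median 1.79. Hypoxia-inducible factors bind the core ACGTG. These letters were in 20 of 27 promoters of the list (74.1%), against 27.9% of genes tested and 21.8% of all entries, searched on both strands. Pkm2, the listed name of pyruvate kinase M, was at 2131, 2604 and 2155 CPM in GEMM MG and 360.3, 332 and 336 in normal MG (log2 fold change 2.74, SE 0.18, adjusted p = 8.19e-09). Ldha, lactate dehydrogenase A, was at 1505, 1822 and 1425 CPM in GEMM MG and 315, 249.7 and 254 in normal MG (log2 fold change 2.54, SE 0.20, adjusted p = 5.36e-08). Gapdh was at 1334, 1881 and 1355 CPM in GEMM MG and 344, 262 and 301 in normal MG (log2 fold change 2.33, SE 0.22, adjusted p = 4.37e-07), and is a gene with many processed copies. BB30101 was the highest tumour library in each, by less than the gap to normal MG. Aldoa rose by 2.00, to 1173, 1647 and 1328 CPM, Pgam1 by 2.41, and the cytokine and tautomerase gene Mif by 3.15, to 252, 333 and 231 CPM. Pfkfb3, whose product raises the activator of phosphofructokinase, was not called (log2 0.64, adjusted p = 0.114), nor was the hypoxia target P4ha1 (log2 -0.08). The Ldha promoter was chosen after its matches were seen, to show 2 sites within a few bases of each other, the first read on both strands. Its stretch is the 120 bases before the start (chr7:46845684-46845803, plus strand), with the core and its reverse complement in capitals:
Ldha: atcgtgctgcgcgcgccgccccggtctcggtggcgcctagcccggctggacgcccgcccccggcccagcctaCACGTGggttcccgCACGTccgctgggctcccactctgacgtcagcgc

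Redox and iron genes rose too. Of 27 genes of the oxidative stress response 18 were higher and 0 lower, median 1.07. Prdx1, a peroxiredoxin, was at 1234, 1448 and 1100 CPM in GEMM MG and 362, 295 and 269.9 in normal MG (log2 fold change 2.03, SE 0.17, adjusted p = 1.23e-07). Hmox1, the heme oxygenase that frees iron, was at 827, 1459 and 939 CPM in GEMM MG and 179, 142 and 133 in normal MG (log2 fold change 2.83, SE 0.35, adjusted p = 5.26e-06). The oxidase subunit Cybb was at 197, 181 and 220 CPM in GEMM MG and 6.85, 5.37 and 13.6 in normal MG (log2 fold change 4.53, SE 0.48, adjusted p = 1.17e-06). All were separate between groups, with BB30101 highest for Prdx1 and Hmox1. The secreted peroxidase Gpx3 rose by 5.81, to 81.2, 76.9 and 31.4 CPM from 0.705, 0.901 and 1.75 CPM, and thioredoxin, Txn1, by 2.05. Iron storage rose through Fth1 (log2 1.73) and Ftl1 (log2 1.40), while the iron exporter Slc40a1 (log2 0.07) and transferrin, Trf (log2 0.11), were not called. Iron and heme genes counted 11 higher and 1 lower of 22, or 8 higher without BB30101. In amino acid metabolism 13 were higher and 4 lower of 26, with 8 higher without BB30101. Psat1, of serine synthesis, was at 304, 235 and 209.7 CPM in GEMM MG and 22.3, 23.3 and 25.5 in normal MG (log2 fold change 3.40, SE 0.23, adjusted p = 1.1e-08), and Glul, glutamine synthetase, fell by 1.44, to 354, 261 and 343 CPM from 926, 863 and 802 CPM. Kmo, of the kynurenine pathway, was at 2.12, 19.7 and 2.52 CPM in GEMM MG and 0.0672, 0.0392 and 0.171 in normal MG (log2 6.37; 4.53 (adjusted p = 5.8e-05) without BB30101 and 7.10 (adjusted p = 0.000344) without 67574), with 250.3 ± 112 CPM in GEMM BMDM.

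Ribosomal protein genes, 75 of 82 higher and 1 lower, median 1.31, and genes of oxidative phosphorylation, 73 of 86 higher and 2 lower, median 1.12, shifted as groups. The ribosomal protein genes summed to 11340, 12650 and 11360 CPM in GEMM MG and 5904, 4643 and 5143 in normal MG, and the oxidative phosphorylation genes to 11200, 11650 and 10350 CPM in GEMM MG and 5589, 5506 and 5768 in normal MG. Both sums were higher in every tumour library. These are short transcripts, with median exon lengths of 1775.5 and 1696.5 bases against 4327.5 over the genes with a length, and many have processed copies that can share reads. Fold change moved with length over the whole table. In the fifth of genes with the shortest exons the median log2 was 0.33, with 928 higher and 328 lower, and in the fifth with the longest -0.24, with 397 higher and 846 lower. The part of length in these 2 groups was not tested.

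Genes of matrix and invasion were higher in 26 and lower in 0 of 36, median 2.95. Fn1, fibronectin, was at 227, 135 and 84.9 CPM in GEMM MG and 3.09, 2.19 and 5.04 in normal MG (log2 fold change 5.43, SE 0.79, adjusted p = 2.98e-05). Hpse, the heparanase, was at 62.9, 61 and 47.3 CPM in GEMM MG and 0.336, 0.901 and 0.891 in normal MG (log2 fold change 6.33, SE 0.39, adjusted p = 4.02e-09). Cd44, the hyaluronan receptor, was at 37.8, 68.7 and 26.6 CPM in GEMM MG and 1.54, 1.06 and 1.99 in normal MG (log2 fold change 4.85, SE 0.39, adjusted p = 6.13e-08). These were separate in all libraries, with different tumour libraries at the top: 68702 for Fn1 and Hpse, and BB30101 for Cd44. Plaur, the urokinase receptor, rose by 1.99, to 228, 309 and 269.7 CPM. The protease inhibitor Serpine2 was not called (log2 0.84, adjusted p = 0.331). In 12 of the 26 called members the mean was lower in GEMM BMDM than in GEMM MG. Over all genes called higher at 20 CPM or more in GEMM MG it was 915 of 1961, with a floor that the list count lacks.

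Growth factor genes were higher in 13 and lower in 2 (0 without 68702 or 67572 and 1 without BB30101 or BB30105) of 31. Csf1, a ligand of CSF1R, was at 517, 465 and 739.7 CPM in GEMM MG and 50.6, 41.3 and 40.2 in normal MG (log2 fold change 3.70, SE 0.67, adjusted p = 0.000249), and at 75.7 ± 24.4 CPM in GEMM BMDM. Vegfa, the angiogenic factor, rose by 2.82, to 56.7, 57.8 and 44.1 CPM from 11.9, 5.6 and 4.87 CPM, and Hgf by 1.93, to 13.4, 13.4 and 6.78 CPM. The ligand Csf1 thus rose where its receptor Csf1r fell. Igf1 was at 154, 272 and 55.7 CPM in GEMM MG and 1.92, 2.78 and 3.46 in normal MG (log2 5.88; 5.27 (adjusted p = 0.00452) without BB30101). Hbegf, an EGF receptor ligand, had a log2 of -2.35, but -2.00 (adjusted p = 0.0556) without 68702 and -1.87 (adjusted p = 0.059) without 67572. Among cytokine receptors, 7 higher and 7 lower of 25, Csf2ra, the GM-CSF receptor chain, rose by 1.78, to 144, 227 and 158 CPM, and Lifr, the LIF receptor, fell, at 43.2, 46.4 and 48 CPM in GEMM MG and 151, 152 and 141 in normal MG (log2 fold change -1.69, SE 0.19, adjusted p = 1.9e-06).

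Genes that mark blood monocytes were higher in 20 and lower in 1 (0 without 68702 or 67572) of 30, median 3.45. The list includes every gene of the monocyte-derived marker sums given above. Plac8 was at 8.32, 15.8 and 12.2 CPM in GEMM MG and 0.773, 0.705 and 0.548 in normal MG (log2 fold change 4.16, SE 0.35, adjusted p = 1.03e-07), against 268 ± 74.4 CPM in GEMM BMDM. Lyz2, lysozyme, was at 4668, 5526 and 2525 CPM in GEMM MG and 283, 309 and 368 in normal MG (log2 fold change 3.73, SE 0.46, adjusted p = 5.19e-06), against 11340 ± 6081 CPM. In 1 of the 20 members called higher the GEMM BMDM mean was below that of GEMM MG. Migration and cytoskeleton genes counted 28 higher and 1 lower (0 without 68702, BB30101, 67572, 67573 or 67574) of 37. Anxa5, annexin A5, was at 348, 383 and 251 CPM in GEMM MG and 38.8, 48.8 and 45.7 in normal MG (log2 fold change 2.88, SE 0.21, adjusted p = 2.32e-08), and Anxa2 rose by 6.11, or by 5.46 (adjusted p = 1.66e-06) without BB30101.

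Purinergic genes went both ways, 11 higher and 7 lower of 25. P2rx4, an ATP-gated channel, rose by 1.27, to 296, 253 and 215 CPM from 106, 109.5 and 102 CPM, and P2rx7, the channel that gates inflammasome activation, fell by 1.08, to 148, 114 and 157 CPM from 279, 332 and 273 CPM. P2ry14, a receptor for UDP-sugars, rose by 4.21 from 1.34, 0.744 and 0.514 CPM (adjusted p = 1.09e-07), and Gpr183, an oxysterol receptor, was at 144, 168 and 166 CPM in GEMM MG and 448, 462 and 394 in normal MG (log2 fold change -1.45, SE 0.21, adjusted p = 3.47e-05). The channels of the ATP response thus changed in opposite directions. Ion channels counted 5 higher (3 without 67573) and 5 lower of 24, close to the shares over all genes. The potassium channel Kcna3 rose by 2.41, to 36.3, 55.2 and 45.7 CPM from 9.24, 7.25 and 9.39 CPM. Nuclear receptors counted 7 higher and 8 lower of 25, and the glucocorticoid receptor Nr3c1 fell, at 126, 82.2 and 124 CPM in GEMM MG and 277, 288 and 280.5 in normal MG (log2 fold change -1.35, SE 0.18, adjusted p = 1.65e-05).

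Microglia from tumours of GL261, a mouse glioma line (GL261 MG, 3 libraries named 80766, 80767 and 80769, labelled C57BL/6; their making is not described in the labels), were set against GEMM MG directly, to see which of these values differ between tumour models. Of 15363 genes 5275 were called (34.3%), 2892 higher (18.8%) and 2383 lower (15.5%) in GL261 MG. This contrast shares the GEMM MG libraries with the one above, so the 2 are given side by side. Library composition differed too: the microglia-defining marker sum averaged 4880.0 CPM in GL261 MG, and the precursor or glioma sum 773.0 CPM, against means within the ranges above in GEMM MG. How much of a difference these account for was not tested.

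In the disease-associated list 1 of 32 was higher and 19 lower in GL261 MG than in GEMM MG, and in the lysosome list 1 of 41 higher (0 without 80769) and 31 lower. Apoe averaged 4132 ± 1595 CPM in GL261 MG (log2 fold change -2.74, SE 0.46, adjusted p = 0.000265). Ctsd averaged 11930 ± 5244 CPM (log2 fold change -2.01, SE 0.34, adjusted p = 0.000306). Trem2, level between GEMM and normal MG, averaged 301 ± 78 CPM (log2 fold change -1.53, SE 0.24, adjusted p = 0.000161), and Fcrls, a microglial Fc receptor-like gene, 252 ± 128 CPM (log2 fold change -3.53, SE 0.54, adjusted p = 0.000118). Homeostatic genes were lower again in GL261 MG, 17 of 30 (11 without BB30105) with 0 higher, P2ry12 at 452 ± 273 CPM (log2 fold change -1.94, SE 0.44, adjusted p = 0.00265). The interferon gamma GTPases went the other way, 13 higher and 3 lower of 18. Irgm1 averaged 876 ± 7.43 CPM (log2 fold change 2.17, SE 0.23, adjusted p = 5.36e-06) and Iigp1 238 ± 126 CPM (log2 fold change 2.58, SE 0.59, adjusted p = 0.00262). The class II gene H2-Ab1 was higher as well, at 2328 ± 702 CPM (log2 fold change 1.33, SE 0.34, adjusted p = 0.00619). Of the 26 mitosis genes 7 were higher and 0 lower in GL261 MG, but the higher count was 1 without 68702 or 80769, 2 without BB30101 and 3 without BB30105, and 15 with limma-voom. Mki67 was not called between the models (log2 fold change 0.31). Rsad2 (log2 fold change -0.16) and Axl (-0.06) were not called between the models either, which does not show that they are equal.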

How the data were processed

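Polyadenylated RNA of sorted cells was amplified with a Smart-Seq kit, which keeps no strand and uses no molecular identifiers, per the labels' protocols. The deposited file holds raw counts per gene symbol as whole numbers. Tools listed in the submitters' processing notes are STAR 2.5.0e, CASAVA 1.8, DESeq2 and HTSeq, with build mm10; which tool did what, and the annotation, are not stated there. Overlapping genes and near-identical copies can share reads.

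Of 23329 symbols 21798 had a count and 15363 passed edgeR's filterByExpr (minimum count 10, minimum total 15). Counts with TMM scaling entered a robust quasi-likelihood fit in edgeR 4.0.16 (R 4.3.3, limma 3.58.1, DESeq2 1.42.0) over all 20 libraries in 6 groups, with Benjamini-Hochberg adjustment over all genes tested. SE is the fold change divided by the root of the F statistic. Code was tested on simulated data. Replicate libraries all differed by more than sampling noise.

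Genes are named by rule: the 12 largest changes per direction at 20 CPM or more without overlap, of each list the 6 smallest p, 2 opposed and 2 abundant members not called, all markers, and the 10 most abundant called per direction. A subset of these is in the text, and some genes are not reported here. The comparison and gene lists were chosen with earlier results of these data known. Promoters are from RefSeq, GRCm38.p6. Exon lengths are from GENCODE, for 13918 of the genes tested (90.6%). Alternatives were DESeq2, limma-voom, DESeq2 size factors, no filter, the compared groups alone, and each library left out.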

Additional observations from a re-analysis of the deposited data

Results flagged for a closer look

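Of the genes with the largest change between GEMM and normal MG, 3 that were called in both contrasts also differed between the tumour models by a log2 of 4 or more, which is the contrast of GL261 MG with GEMM MG and equals the difference of their responses, since both share the normal MG libraries. The genes were chosen by their change in the same GEMM MG libraries, so their adjusted p-values here are not independent of that choice. Moxd1 was higher in GL261 MG by a log2 of 5.97, averaging 1446 ± 1039 CPM (log2 fold change 5.97, SE 0.74, adjusted p = 2.23e-05) against 12.1, 31.6 and 25.3 CPM in the GEMM MG libraries, and the difference was 5.12 without GL261 MG library 80769. Expi was lower in GL261 MG with a log2 of -6.26, averaging 1.36 ± 1.05 CPM (adjusted p = 0.000831) against 18.6, 287 and 13.2 CPM, where BB30101 was far above the others; the difference was -3.53 without BB30101 and -7.20 without 80769, and limma-voom did not call it (adjusted p = 0.063). Apoc1 was lower with a log2 of -4.08, averaging 4.42 ± 3.98 CPM (log2 fold change -4.08, SE 0.80, adjusted p = 0.000845) against 122, 84.8 and 16.2 CPM, with -5.13 without GL261 MG library 80767.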

How the results depend on the processing

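For GEMM MG against normal MG, genes called higher and lower went from 3527 and 3204 to 4034 and 3234 with DESeq2, 3507 and 3776 with limma-voom, 3740 and 2885 with DESeq2 size factors, 3443 and 2685 without the filter, and 4256 and 4031 with the 6 libraries alone. Leaving out each library gave 2922 to 3273 higher and 2483 to 2732 lower, the lowest of both without BB30101, where 2886 of the 3527 higher and 2402 of the 3204 lower calls remained. For GL261 MG against GEMM MG, 2892 higher calls ranged from 1888 (without GL261 MG library 80769) to 2922 with a library left out, and lower calls from 1723 to 2456. Over the named genes, no gene called in either fit changed direction between GEMM MG and normal MG, while 61 values in 37 genes that were called in neither changed sign. Another 158 values in 47 genes lost the call and 67 in 41 genes gained it. Counts over lists moved by more than 1.5 times with the 6 libraries alone in Fc receptors (3 to 5 higher), transcription factors (1 to 3 higher), chemoattractant receptors (4 to 8 higher, 2 to 5 lower), TGF-beta (7 to 11 lower), alternative activation (1 to 4 lower), cell cycle control (3 to 5 lower), checkpoints (4 to 8 lower), inflammatory cytokines (3 to 6 lower), lysosome (2 to 5 lower) and glycolysis and hypoxia (1 to 3 lower). Further moves with the 6 libraries alone were in matrix (0 to 2 lower), migration (1 to 2 lower), chemokines (0 to 1 lower), oxidative stress (0 to 1 lower) and microglia identity (0 to 1 higher). DESeq2 called 7 chemoattractant receptors higher and limma-voom 4 lower. Without the filter 5 NF-kB, 1 class II, 1 lysosomal, 1 growth factor and 2 checkpoint genes were lower, and DESeq2 size factors gave 2 lower in class II and in checkpoints. The lower call in glycolysis and hypoxia was lost with DESeq2, its size factors and without the filter, and that in migration with the last 2. In GL261 MG against GEMM MG, the 2 groups alone gave 10 identity genes lower, 0 lysosomal genes higher and 15 mitosis genes higher, and no filter 4 mitosis genes. Esam, an endothelial marker, reversed in GL261 MG against GEMM MG without GL261 MG library 80766 (log2 -1.42), and reached 0.58 without 80767. The causes were not tested. No paired analysis was possible because the groups compared share no replicate number. What depth limits was not measured, since no counts were thinned.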
